A study of Drosophila melanogaster and Drosophila simulans and Drosophila erecta with 10 samples.

Results

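The germ granule and piRNA pathway genes described here are 10 Drosophila melanogaster genes chosen by name: tud, del, aub, AGO3, vas, rhi, cuff, spn-E, krimp and qin. Of these 10 genes, 5 (tud, del, aub, krimp and qin) were found by symbol in a testis expression table of 7326 genes. The table comes from RNA-seq of testes of adult flies 3 to 5 days old, reared at 25 °C. It holds 2 libraries of a control genotype and 2 libraries of a genotype labelled miR-983 mutant, a knockout of a microRNA gene. Neither strain nor allele is given for either genotype. The series' text calls the 2 libraries of each biological replicates, and does not say how many flies went into a library. The same comparison was made in D. simulans, and small RNAs were sequenced in other species. None of those data were used here, because the D. simulans identifiers have no gene symbols in the sources used here and the small RNA tables list only microRNAs.

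PIWI-interacting RNAs (piRNAs) are small RNAs of animal germ cells that guide Argonaute proteins of the PIWI clade to transposon transcripts and to other repeats. In flies, long precursors are transcribed from piRNA clusters, exported, and cut and amplified in the nuage, a germ granule at the outer face of the nuclear envelope. In the fly testis the pathway is known for silencing the Stellate repeats, whose unchecked expression harms male fertility, and for acting mainly in early germ cells.

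Expression is given as the log2 value the authors deposited. The sources used here give neither the quantity under the logarithm nor any correction for gene length, so levels are compared between libraries for each gene and not between genes. No value in the table lies at or below 1, so a gene under that level in any of the libraries would be missing from it. Sequencing depth is unknown. AGO3, vas, rhi, cuff and spn-E have no row under their current FlyBase identifiers; 131 identifiers of the table (1.79%) matched no symbol, and a gene listed under an older identifier would be among them. These 5 genes therefore have no value, which does not say that they are silent.

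The miR-983 genes themselves are not listed, so the knockout could not be checked in the table. Of the testis markers, 19 of 22 spermatid and sperm genes and 17 of 18 spermatocyte genes are listed. Among them, the sperm tail gene dj stood between 9.27 and 9.38 and the testis tubulin betaTub85D between 9.12 and 9.32 in the 4 libraries. Over all genes, 167 of 7326 (2.28%) passed the test of mutant against control (limma, Benjamini-Hochberg adjusted p under 0.05), with 90 lower (1.23%) and 77 higher (1.05%). With 2 libraries per genotype, an exact permutation test of a single value cannot give a p below 0.333, so single genes were tested with limma, which borrows spread from all genes.

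Of the 5 listed genes, 1 passed the test: tud fell in the mutant. This is 1 gene against a background of 2.28%, and with 5 listed genes a share has little meaning. The second gene with a low mutant value, del, did not pass. The other listed genes, aub, krimp and qin, had log2 fold changes between -0.05 and 0.10. The median log2 fold change was -0.05 over the 5 genes and -0.01 over all genes, and the median absolute change was 0.10 against 0.07. Because these are whole testes, fewer cells of a type and less RNA per cell cannot be told apart in any of these values.

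**Figure D1:**
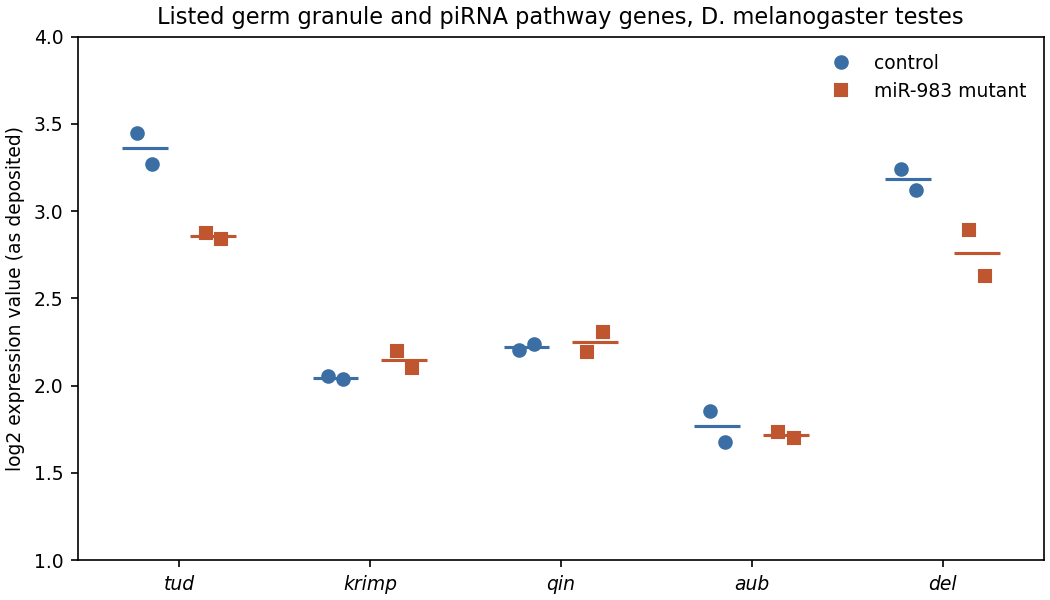
Log2 expression values as deposited for the 5 listed genes in D. melanogaster testes. Each point is a library, circles are controls, squares are miR-983 mutants, and lines are means of 2 libraries. Both mutant libraries lie below both controls for tud and del, as for 24.3% of all genes, while the genotypes overlap for aub and qin. For krimp both mutants lie above both controls, as for 17.9% of all genes, and del and krimp did not pass the test.

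The Tudor-domain proteins of the granule come first, since tud is among them. tud (FBgn0003891, chromosome arm 2R) encodes Tudor, a scaffold of germ granules with many Tudor domains, which bind methylated arginines of PIWI-clade proteins such as Aubergine. Its log2 value was 3.45 and 3.27 in control replicates 1 and 2, and 2.88 and 2.84 in mutant replicates 1 and 2. Both mutant libraries lay below both controls, as for 24.3% of all genes. The gap between the nearest libraries was 0.40, while the controls differed by 0.18 and the mutants by 0.03. The mean went from 3.36 ± 0.13 (SD, n = 2) to 2.86 ± 0.02. The log2 fold change was -0.50 ± 0.09 (SE; 95% interval -0.71 to -0.30; limma adjusted p = 0.033), or 70.7% of the control value on the linear scale. Among all genes, 79 had a log2 fold change as low as that of tud or lower (1.08%). The authors' deposited table also marks tud as past p 0.05 by DESeq2, a mark that 1.65% of its genes carry and none of the other listed germ granule and piRNA genes.

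The call of tud did not hold in every fit that left out 1 library. Such a fit leaves a genotype with a single library, and the SE rose from 0.09 to between 0.11 and 0.14. The share of all genes that passed also differed from that in the fit of all 4 libraries. It was higher with a control left out and lower with a mutant left out. A missed or passed threshold in these fits is thus not comparable with the fit of all 4 libraries, and why tud missed it was not tested. With control replicate 1 left out the log2 fold change was -0.41 (limma adjusted p = 0.0581). It was -0.52 with mutant replicate 1 left out (limma adjusted p = 0.0675) and -0.48 with mutant replicate 2 left out (limma adjusted p = 0.0926). With control replicate 2 left out it was -0.59 (limma adjusted p = 0.000854). The direction was the same in these 4 fits.

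krimp (FBgn0034098, arm 2R) encodes Krimper, a Tudor-domain protein of the nuage that binds AGO3 and Aubergine. Its log2 value was 2.05 and 2.04 in the controls, against 2.20 and 2.10 in the mutants. Both mutant libraries were above both controls, a pattern that 17.9% of all genes show, and the difference of 0.10 ± 0.09 (SE; 95% interval -0.11 to 0.31; limma adjusted p = 0.744) did not pass the test. qin (FBgn0263974, arm 3R) encodes a protein with a RING finger and Tudor domains that keeps the exchange of piRNA precursors between Aubergine and AGO3 in order. Its values were 2.21 and 2.24 in the controls, against 2.19 and 2.31 in the mutants, so the controls lay between the mutants. The log2 fold change was 0.03 ± 0.09 (SE; 95% interval -0.19 to 0.24; limma adjusted p = 0.951). In the annotation of assembly Release 6 plus ISO1 MT, qin overlaps the listed genes Tssk, a testis kinase gene, CG14304 and CG31224, and strand-aware counting is not stated, so its values are uncertain. Their log2 fold changes were 0.03 for Tssk, 0.03 for CG14304 and -0.12 for CG31224. Tssk stood at 7.50 and 7.54 in the controls, against 7.49 and 7.61 in the mutants. CG14304 stood at 3.16 and 3.21, against 3.15 and 3.28. Both rank the libraries in the same order as qin, and CG31224 does not. Whether reads of these genes entered the values of qin was not tested.

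The helicases vas and spn-E belong to the same compartment. Vasa is a DEAD-box RNA helicase needed for the amplification cycle, and Spindle-E is a helicase with a Tudor domain. Neither has a row under its current identifier, and for vas it is open whether it stands in the table under an older identifier without a symbol.

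Of the PIWI-clade Argonautes, aub is listed and AGO3 is not. aub (FBgn0000146, arm 2L) encodes Aubergine, which cuts transposon and Stellate transcripts with the guidance of piRNAs. Its log2 value was 1.86 and 1.68 in the controls, against 1.73 and 1.70 in the mutants, and both mutants lay between the controls. The log2 fold change was -0.05 ± 0.10 (SE; 95% interval -0.29 to 0.19; limma adjusted p = 0.915). The interval spans 82% to 114% of the control value, so a change of the size seen in tud lies outside it. Its annotated end overlaps TTLL4A, a listed gene with a log2 fold change of -0.02. Strand-aware counting is not stated, so the values of aub and the reading of its interval are uncertain.

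The Rhino-Deadlock-Cutoff complex marks piRNA clusters that are transcribed from both strands. Rhino binds modified histone H3, Cutoff is thought to protect the transcripts from termination and decay, and Deadlock, encoded by del, links them. rhi and cuff are not listed. del (FBgn0086251, arm 2L) had log2 values of 3.24 and 3.12 in the controls, against 2.89 and 2.63 in the mutants. Both mutants were below both controls, as for 24.3% of all genes, with a gap of 0.23 between the nearest libraries. The mutant replicates differed by 0.27, more than the gap. The log2 fold change was -0.42 ± 0.11 (SE; 95% interval -0.67 to -0.17), which did not pass the test (limma adjusted p = 0.12; unadjusted p = 0.0048). An unadjusted p under 0.05 was reached by 12.7% of all genes. In a fit with a replicate block del passed (limma adjusted p = 0.00994), as did 6.87% of all genes. Nothing states that libraries with the same replicate number are paired. del passed with control replicate 2 left out (-0.48) or with mutant replicate 1 left out (-0.55). It did not pass with control replicate 1 left out (-0.36) or with mutant replicate 2 left out (-0.29). As for tud, the share of all genes that passed differed between these fits. These outcomes are thus not comparable with the fit of all 4 libraries.

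**Figure D2:**
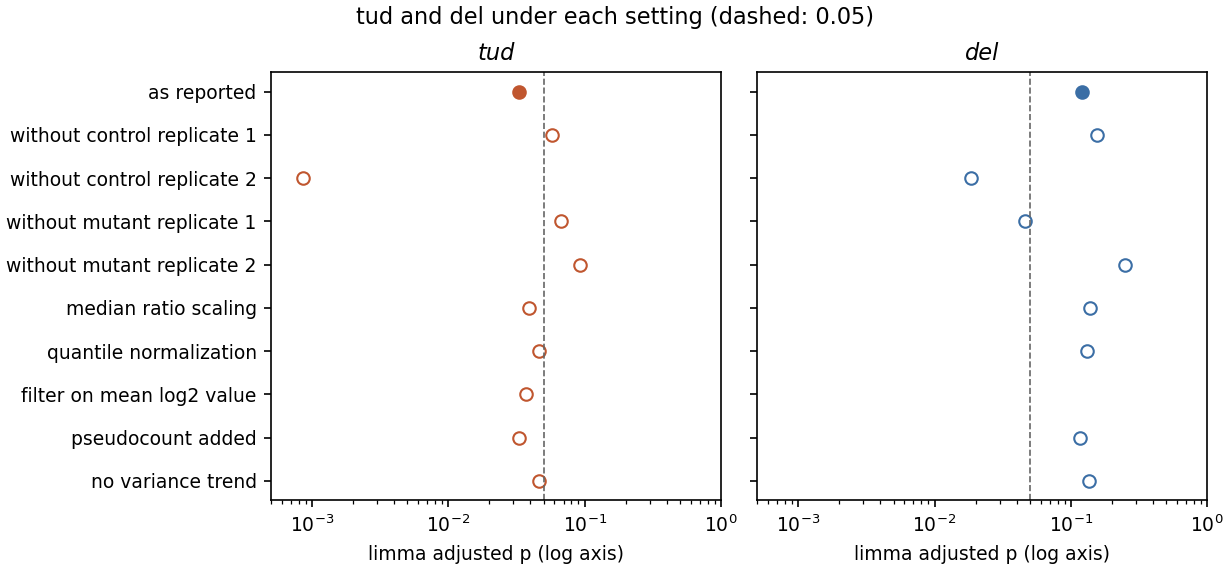
Limma adjusted p (log axis) of tud and del in the fit as reported (filled) and in fits with a library left out or another scaling, filter, pseudocount or variance model (open), with the threshold of 0.05 dashed. The fit with a replicate block is not drawn, and both genes pass in it (limma adjusted p = 0.00333 for tud and 0.00994 for del). tud passes as reported at 0.033 and misses the threshold without control replicate 1 or either mutant replicate. del misses as reported at 0.12 and passes without control replicate 2 or mutant replicate 1. The share of all genes that pass differs between the fits. del has no point under the filter, which it did not pass.

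If the deposited values are logarithms without an added constant, which is not stated, differences taken within a library do not depend on scaling between libraries. tud stood 0.88 and 0.63 above the median of 30 other listed pathway genes on the log2 scale in the controls, and 0.32 and 0.31 above it in the mutants. del stood 0.68 and 0.48 above the same median in the controls and 0.34 and 0.09 above it in the mutants. The mean difference between genotypes was -0.45 for tud and -0.37 for del, and the genotypes did not overlap for either gene. In the deposited values, 24.3% of all genes have both mutant libraries below both controls. An exact permutation test gave p = 0.333 for each of these differences, the lowest it can give with 2 libraries per genotype. Between tud and del the within-library difference was 0.21 and 0.15 in the controls, against -0.02 and 0.21 in the mutants, which overlap.

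**Figure D3:**
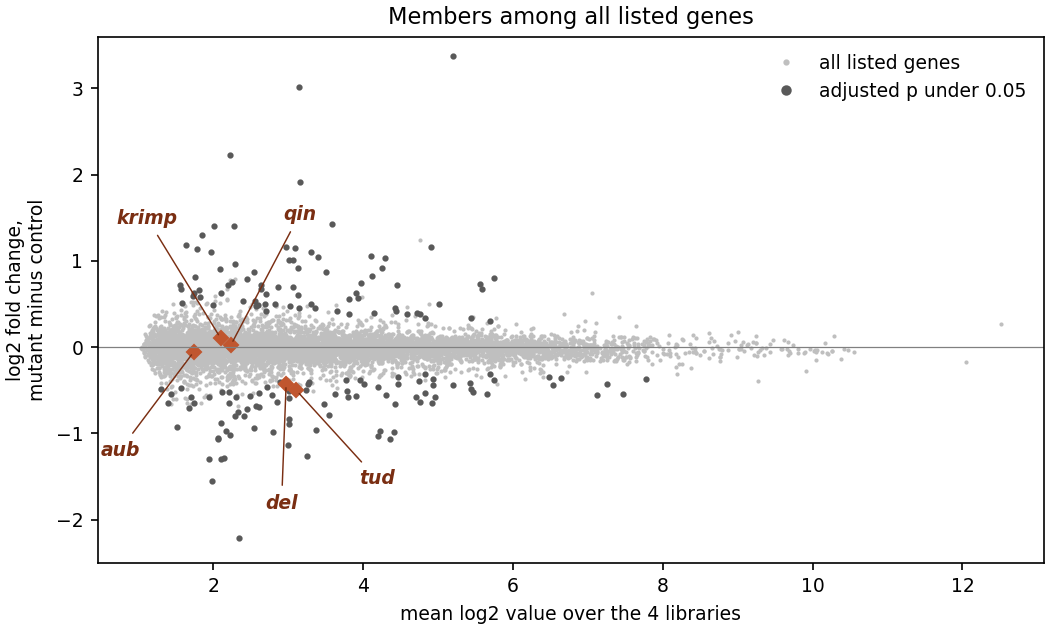
Log2 fold change (mutant minus control) against mean log2 value over the 4 libraries for all 7326 listed genes, with genes past the adjusted p threshold in dark grey and the 5 germ granule and piRNA genes as labelled diamonds. tud and del lie at the lower edge of the cloud at -0.50 and -0.42, and aub, krimp and qin lie inside it.

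The rest of the pathway was described from 4 lists of other piRNA and germ granule genes. They name 58 genes, of which 30 are listed, and 0 of these 30 passed the limma test in either direction; 0 had an unadjusted p under 0.05 and 0 carry the authors' DESeq2 mark. Their log2 fold changes ran from -0.17 to 0.16, with a median of -0.01. The median absolute change was 0.07, as over all genes. Those of tud and del lie below this range.

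Among 10 listed genes of the nuage and germ granules (of 19), the smallest p belonged to tral and the median log2 fold change was 0.00. tral, which encodes the RNA granule protein Trailer hitch, was at 0.14 ± 0.09 (SE; limma adjusted p = 0.609). smg, the translational repressor Smaug, was at -0.17 ± 0.12. mael, which encodes the nuage protein Maelstrom, was at -0.11 ± 0.08, and me31B, a DEAD-box helicase of RNA granules, at 0.08 ± 0.06. None of these 4 genes passed (adjusted p 0.609 to 0.691). The Tudor-domain genes papi and tapas were at 0.01 and -0.06.

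Among 7 listed genes of piRNA biogenesis (of 14), Gasz, which encodes a mitochondrial scaffold of piRNA processing, was at 0.16 ± 0.09 (SE; limma adjusted p = 0.555). The chaperone gene Hsp83 was at -0.14 ± 0.11, the exonuclease gene Nbr, which trims small RNA ends, at -0.10 ± 0.10, and the methyltransferase gene Hen1 at 0.08 ± 0.09. The helicase gene armi had values of 2.51 and 2.29 in the controls, against 2.49 and 2.33 in the mutants. piwi and zuc, which encode the nuclear PIWI protein and the nuclease that makes phased piRNAs, are not listed.

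Among 6 listed genes of cluster transcription and export (of 13), 5 had a value below 0, as did 3990 of all 7326 genes, the lowest at -0.12 ± 0.08 (SE; limma adjusted p = 0.659) for Hel25E, the RNA helicase UAP56 that accompanies cluster transcripts. The THO complex genes thoc5, thoc7 and Hpr1 were at -0.10, -0.08 and -0.07. Among 8 listed silencing effectors (of 13), which act downstream of nuclear piRNA complexes, values ran from -0.11 to 0.08. Hira, a histone chaperone gene, was at 0.08 ± 0.12. The dynein light chain gene ctp was at 0.07 ± 0.10.

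**Figure D4:**
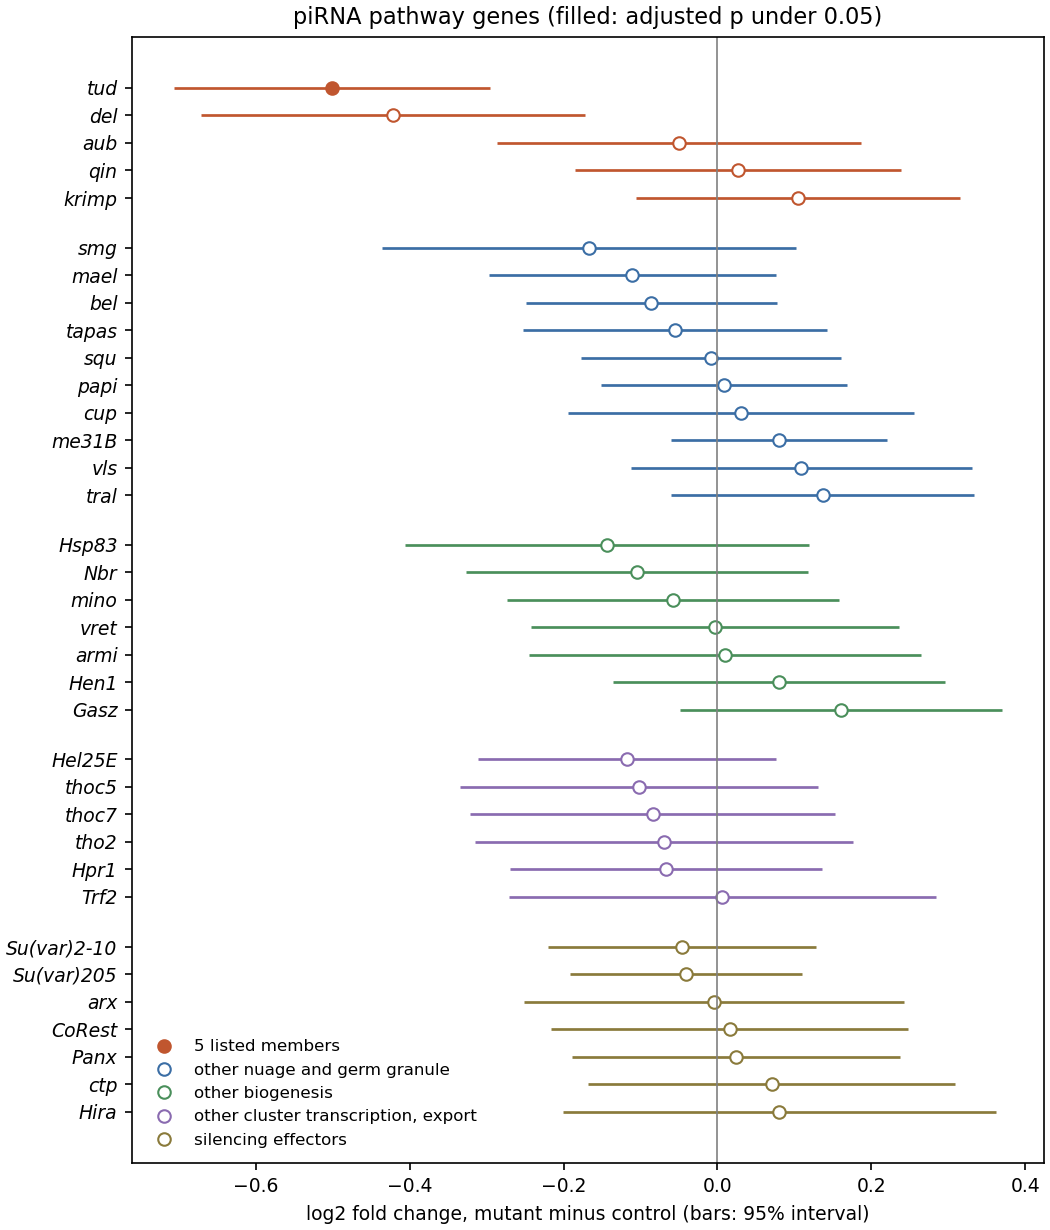
Log2 fold change with its 95% interval (limma) for the 5 listed members and 30 other listed pathway genes, coloured by role, with mael shown once. Only tud is filled (adjusted p under 0.05); the intervals of tud and del do not reach 0, and those of the 30 other genes do.

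The related machinery of microRNAs and siRNAs had 8 of 11 genes listed, and 0 passed. The lowest value belonged to pasha, a partner of the nuclease Drosha, at -0.16 ± 0.11 (SE; limma adjusted p = 0.642), and Dcr-2, the siRNA Dicer, was at -0.15 ± 0.09 (0.595). The siRNA cofactor gene r2d2 was at 0.11 ± 0.09, and gw, a silencing partner of AGO1, at 0.14 ± 0.10.

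Stellate genes encode a relative of a casein kinase 2 subunit and are silenced by piRNAs in testis. From a list of 21 Stellate genes and their relatives, 9 are listed and 0 passed the limma test; 4 had an unadjusted p under 0.05, against 12.7% of all genes. Of the 9 genes, 6 had both mutant libraries below both controls, against 24.3% of all genes, and the median log2 fold change was -0.23. These 6 are Ste12DOR and the 5 betaNACtes genes, which had a median of -0.23 on their own. The count and the median thus rest mostly on betaNACtes genes and not on the Stellate repeats. Ste12DOR went from 4.08 and 3.94 in the controls to 3.75 and 3.70 in the mutants, which is a difference of -0.28 ± 0.08 (SE; limma adjusted p = 0.135). The testis betaNAC homologs betaNACtes3 (-0.26 ± 0.09), betaNACtes4 (-0.23 ± 0.09) and betaNACtes6 (-0.23 ± 0.09) did not pass either (adjusted p 0.3 to 0.363). In contrast, the listed repeat gene Ste:CG33247 had overlapping libraries, at 3.62 and 3.89 against 3.58 and 3.71. The Stellate copies are near-identical to each other, as are the betaNACtes genes, and the handling of reads with several matches is not stated, so these values are uncertain and not independent of each other. The other 12 genes of the list are not listed in the table.

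**Figure D5:**
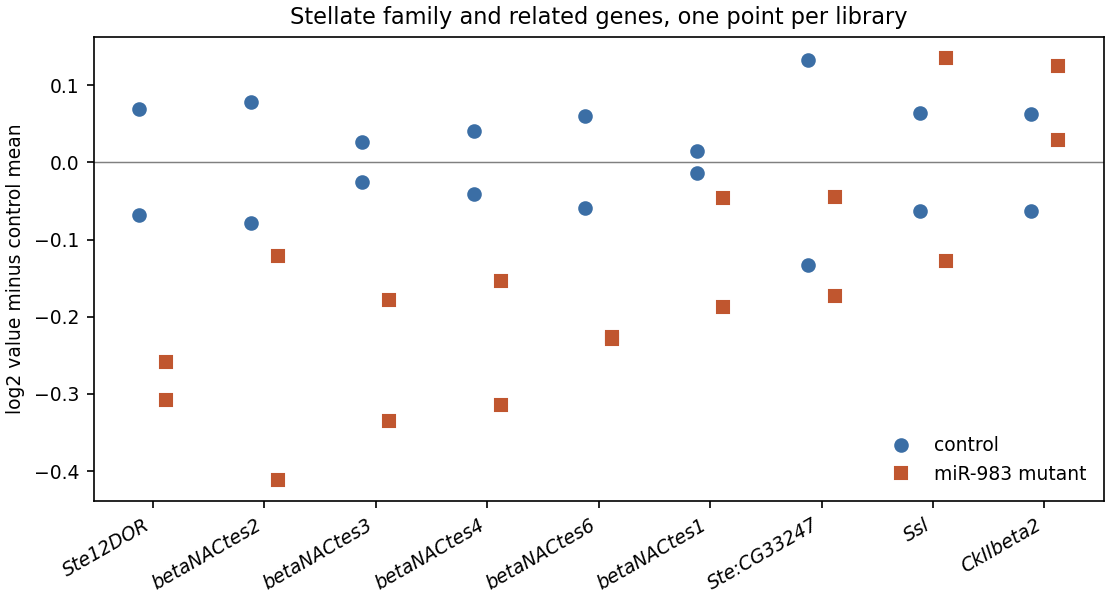
Log2 value minus the control mean of each gene for 9 listed Stellate family and related genes, with 1 point per library (circles controls, squares miR-983 mutants). Both mutant libraries lie below both controls in Ste12DOR and the 5 betaNACtes genes, as for 24.3% of all genes, while Ste:CG33247 and Ssl overlap. None of the 9 genes passed the test.

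A microRNA is known to lower its targets, and the authors' deposited table marks genes with predicted sites for miR-983. It marks tud as a target of miR-983-5p by TargetScan and by PITA and of miR-983-3p by TargetScan, which holds for 29 genes of the table (0.396%). Of those 29 genes, 1 passed the limma test as higher and 1 as lower, the latter being tud, against 1.05% and 1.23% of all genes, and their median log2 fold change was -0.00. In the same deposited table krimp and qin are marked as miR-983-5p targets by PITA alone, as are 2.46% of its genes, and aub and del carry no mark. Among the 30 other listed pathway genes, the deposited table marks me31B, Nbr, Hel25E and CoRest, each by TargetScan. Their log2 fold changes of 0.08, -0.10, -0.12 and 0.02 did not pass the test. tud thus carries all 3 marks and was lower in the mutant, and del, which did not pass the test, carries none.

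Markers of cell types and states were summed on the linear scale of the deposited values in each library. Germ cells of the early stages, in which the piRNA pathway is known to act, had 3 of 14 markers listed (bgcn, tut and Rbfox1), and their sum was 28.0 and 28.5 in the controls and 30.3 in each mutant; the defining gene bam is not listed. tut was at 0.32 ± 0.12 (SE; limma adjusted p = 0.289). Spermatocyte markers summed to 207 and 208 in the controls, against 208 and 195 in the mutants, with 0 of 17 called. Of these 17 genes, 12 had a log2 fold change below 0 and 5 above 0, with mia highest at 0.45 ± 0.09 (SE; limma adjusted p = 0.0537). Both mutant libraries lay below both controls for 9 of them, against 24.3% of all genes. Both lay above for 1, against 17.9%. Spermatid and sperm markers summed to 7699 and 8427 in the controls, against 7501 and 8219 in the mutants (0 of 19 called).

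Some heat-shock and fat body markers moved with genotype. All 12 listed heat-shock genes had both mutant libraries below both controls, as 24.3% of all genes do, and 11 of them passed the limma test as lower, against 1.23% of all genes. The 11 genes are Hsp70Aa, Hsp70Ab, Hsp70Ba, Hsp70Bb, Hsp70Bbb, Hsp68, Hsp22, Hsp23, Hsp26, Hsp67Bc and stv, with log2 fold changes from -1.03 to -0.43, and the other is Hsp27, at -0.28; the Hsp70 copies are near-identical and may share reads. The sum over the 12 genes went from 588 in each control to 413 and 410 in the mutants. Fat body markers summed to 918 and 968 in the controls, against 907 and 1061 in the mutants; Of 4 listed (of 15), 2 passed the limma test as higher, against 1.05% of all genes: Tsf1 (0.80 ± 0.11, SE; adjusted p = 0.0103) and NLaz (0.62 ± 0.08; 0.00771). Obp44a and Obp99a, at -0.00 and 0.02, did not pass. Somatic testis markers had 3 of 12 listed and 0 called by limma, at 151 and 164 against 191 and 206, nearly all from the metallothionein gene MtnA. MtnA was at 0.35 ± 0.07 (SE; limma adjusted p = 0.0661) and carries the DESeq2 mark in the authors' deposited table. Of the other listed somatic markers, upd1 was at -0.23 ± 0.15 and Wnt4 at 0.13 ± 0.09, so the 3 genes did not share a direction. Muscle markers, with 6 of 12 listed and 0 called, stood at 167 and 152 against 142 and 151. The 1 listed of 18 accessory gland genes, Acp95EF, was at 4.16 and 4.12 in the controls, against 4.42 and 6.34 in the mutants, so mutant replicate 2 stood apart. Without that library tud was at -0.48 and del at -0.29. The part of these markers in the values of tud and del was not tested.

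The neighbours of tud and del in the genome did not pass the test. The listed genes closest to tud in assembly Release 6 plus ISO1 MT are Pu, at -0.12 ± 0.08 (SE; limma adjusted p = 0.615), and Rgk3, at -0.09 ± 0.09 (0.779). Those closest to del are Dap160, at 0.04 ± 0.08, and E2f2, at 0.03 ± 0.08. No annotated gene overlaps tud, while del overlaps pths, which is not listed. Since strand-aware counting is not stated, the values of del are uncertain in this respect.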

How the data were processed

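Per the labels' protocols, RNA was extracted with Trizol from testes dissected on dry ice. The submitters' processing notes name TopHat, a spliced-read aligner, with no version; for build, annotation, counter, strand and multi-mapping settings nothing is stated. The authors deposited log2 values (1 column per library), a log2 fold change, target marks (TargetScan, PITA) and a DESeq2 mark, per the file headers. The deposited log2 fold change equals the difference of the group means within 1.5e-06. No value column was left unmapped (0 columns). Symbols matched 7195 of 7326 identifiers.

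All genes were fitted with limma 3.58.1 in R 4.3.3 (empirical Bayes trend, two-sided, Benjamini-Hochberg over 7326 genes, threshold 0.05, 95% intervals), on the log2 values as deposited. Fold changes can understate low genes. The fit was tested on simulated data. Permutation tests used SciPy 1.17.1 in Python 3.11.15. Named are the 10 members, genes overlapping them, and, from a rule of up to 4 genes per list by smallest p plus those past the threshold, those a result turns on (not every gene the rule allows is printed); other genes named (papi, tapas, armi, piwi, zuc, CoRest, dj, betaTub85D, bgcn, Rbfox1, Ste:CG33247, Ssl, bam and neighbours) were chosen after their values were seen. Members and lists were chosen with earlier results of these data known. Alternatives covered libraries left out, scaling, a filter, a pseudocount, the variance trend and a replicate block.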

Additional observations from a re-analysis of the deposited data

How the results depend on the processing

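Across the alternatives the log2 fold change of tud kept its direction and del and krimp kept theirs. The count of all genes called was 503 (6.87%) with the replicate block and 85 among genes with a mean log2 value of at least 3, and it ranged from 118 to 304 with 1 library left out. The count of germ granule and piRNA genes called was 2 with the replicate block (tud and del) and ranged from 0 to 2 with 1 library left out. Over the 4 fits that each drop a library, log2 fold changes ranged from -0.59 to -0.41 for tud, from -0.55 to -0.29 for del, from -0.14 to 0.041 for aub and from -0.031 to 0.085 for qin, the last 2 genes changing sign; a genotype left with 1 library is assumed to vary like the other. For del the replicate block gave -0.42 with limma adjusted p = 0.00994. The labels do not say whether same-numbered libraries are paired. Their deviations correlated at 0.147 across genes, from which pairing cannot be told. Median ratio scaling, quantile normalization, a pseudocount of 1 and no variance trend changed no call among the 5 genes, with limma adjusted p of tud up to 0.0462. The filter left out del, aub, krimp and qin. None of the 30 other pathway genes passed under any alternative run (0 genes, alternatives chosen after seeing the data).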
